A study of Mus musculus with 71 samples.

Results

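The RNA polymerase II (Pol II) transcription machinery was followed at the level of its own transcripts in mouse embryonic stem cells (mESC) labelled as male, the pluripotent cells of the early embryo, cultured in 2i/LIF medium. Members were chosen by gene name as Polr2a to Polr2m, every gene whose name starts with Med or Taf and a number, and Gtf2a to Gtf2h. This rule found 78 of the 21527 genes counted. They comprised 13 Pol II genes, which are 12 subunits and the associated Polr2m, 29 genes named for Mediator, 13 genes of the general transcription factors TFIIA, TFIIB, TFIIE, TFIIF and TFIIH, and 23 genes named for TBP-associated factors (TAFs). The name rule also took in genes that work elsewhere. Taf1a to Taf1d belong to the Pol I factor SL1, Taf5l and Taf6l to the SAGA co-activator, Taf15 encodes an RNA-binding protein of the FET family, and Med9os is an antisense RNA of Med9.

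SLAM-seq follows the loss of label from RNA. All labelled cells were fed the uridine analogue s4U at 100 µM for 24 h and then chased with an excess of unlabelled uridine, and the RNA was alkylated with iodoacetamide, after which an s4U is read as C in place of T. The treated cells received 20 µM STM2457, an inhibitor of the mRNA methyltransferase Mettl3, and the control cells received its solvent DMSO. Either was added 6 h before the chase and kept on, so that 0 h and 12 h of chase correspond to 6 and 18 h of treatment. Both treatments were sampled at 0, 1, 1.5, 2.3, 3.5, 5.3, 8 and 12 h of chase with 4 replicates each, except for 3 with STM2457 at 3.5 h, and each had 4 libraries from cells without s4U, which makes 71 libraries. For the cells without s4U, neither the labels nor the study's methods give the hours of treatment, which may differ from those of the labelled cells. The cells are 1 line. The labels do not say that replicates came from separate cultures, whereas the study's methods describe its replicates as biologically independent, so p-values measure the spread between these libraries, which may in part be technical.

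Pol II is a complex of 12 subunits, of which Polr2a carries the catalytic centre and the repetitive C-terminal domain, and several small subunits are shared with Pol I and Pol III. TFIID, made of TBP and the TAFs, recognises promoters, TFIIA and TFIIB stabilise it and recruit Pol II, TFIIF escorts the polymerase, and TFIIE brings in TFIIH, which opens the DNA and phosphorylates the C-terminal domain. Mediator bridges activators and Pol II through its head, middle and tail modules, held together by the backbone subunit Med14, with a kinase module that binds reversibly. m6A, the mark laid down by Mettl3, lies mostly in GGAC sequence contexts of mRNA and is known to promote decay of the transcripts that carry it.

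Libraries held 4539726 to 7368244 counted reads with DMSO and 4704543 to 6804970 with STM2457. The 78 members took 0.561 to 0.620% of them. Levels are given in CPM, reads relative to library size. Those of the markers, and the members' means over all libraries with the medians of these means, are not scaled further. All other levels are after scaling by the trimmed mean of M-values (TMM). The stem cell markers Pou5f1, at 647 to 1050 CPM, and Nanog, at 132 to 473 CPM, were read in every library, whereas Klf4 stayed at or below 9.05 CPM. Of the markers of other cell types, Gata6, Sox17, Gata3, Col1a1 and Col1a2 had a median of at most 0.18 CPM, the medians of Gata4, Mixl1, Eomes and Thy1 ran from 2.06 to 10.9 CPM, and those of the lineage genes T and Cdx2 were 14.8 and 19.5 CPM. Their part in the results was not tested. The label male was not borne out by Y-linked reads. Ddx3y had no read in any of the 71 libraries, of which a count of 0 allows up to 3 reads each, and Eif2s3y had 5 reads in all, in 3 libraries. The Y-linked genes Kdm5d, Uty, Zfy1, Zfy2 and Usp9y, looked up after these values were seen, also had none, and Xist had 17 reads in 5 libraries. Fewer cells of a kind and less RNA per cell cannot be told apart in such bulk libraries, and the precision that depth gives covers counting error only.

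Because libraries were primed at the poly(A) tail, each transcript gives reads from its 3′ end only and levels can be compared between genes without correction for length. The members spanned a wide range of levels. Polr2c and Polr2a, the subunits for assembly and catalysis, were the highest with a mean over all libraries of 538 and 452 CPM, followed by the shared subunits Polr2e (352 CPM) and Polr2l (289 CPM) and by Taf10 (241 CPM), a TAF shared by TFIID and SAGA. The core subunits had a median of 118 CPM, the shared subunits 180 CPM, Mediator head subunits 60 CPM, tail subunits 31.3 CPM and TFIID TAFs 21 CPM. The paralogues known from germ cells were scarce. Taf7l averaged 0.859 CPM where its partner Taf7 averaged 40.5 CPM, Taf4b averaged 0.743 CPM against 10.2 CPM for Taf4, and Gtf2a1l averaged 0.773 CPM against 20.8 CPM for Gtf2a1. In the kinase module, Med12l averaged 1.46 CPM, and Med13 (112 CPM) was higher than its paralogue Med13l (28.2 CPM). Med12 and Taf9, the paralogues of Med12l and Taf9b, were not among the genes counted. Of the members at the low end, Taf1 had 1 to 46 reads and Taf9b 1 to 53 reads per library, so that little can be said of them at this depth. Taf1, Taf9b, Taf7l and Med14 were the members on the X chromosome.

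The sequence context of m6A gives the background for a Mettl3 inhibitor. In the annotated 3′ UTR of the transcript with the longest coding sequence, the motif GGACN with any last base but G, searched on the transcript strand only, occurred at least once in 69.7% of 76 members and in 76.1% of 19364 genes, with a median density of 2.14 and 2.36 per kb. The site nearest to the stop codon is shown for the 9 members with the largest differences among those called between treatments, other than Taf6l, which has none in this window, and for the catalytic subunit Polr2a. The motif is in capitals with 10 bases on either side, and coordinates are those of GRCm38. All of these sites lie in annotated 3′ UTR exons. Whether any of them is methylated was not measured in these libraries.
Med18, chr4:132459324-132459348, minus strand, 222 bases after the stop codon: ctggaactcaGGACCctgtacttcc
Med7, chr11:46441710-46441734, plus strand, 439 bases after the stop codon: tatttgttagGGACTctttttttgc
Taf5l, chr8:123997242-123997266, minus strand, 53 bases after the stop codon: tcacagtccaGGACTtgctaaaacc
Taf1c, chr8:119598019-119598043, minus strand, 578 bases after the stop codon: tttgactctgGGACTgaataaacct
Polr2m, chr9:71479371-71479395, minus strand, 12 bases after the stop codon: gacagggctgGGACAccccgagagc
Taf5, chr19:47082856-47082880, plus strand, 222 bases after the stop codon: ttcgtggaggGGACAtttatggtgc
Taf8, chr17:47489646-47489670, minus strand, 224 bases after the stop codon: actgtgccggGGACTgctggtgact
Med22, chr2:26905678-26905702, minus strand, 112 bases after the stop codon: gctcccttggGGACTttgggatcag
Polr2a, chr11:69734260-69734284, minus strand, 136 bases after the stop codon: tggaagttctGGACCccatttttga

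To ask which members differed between treatments whatever the chase time, reads were compared over the 8 chase times. Of 76 members tested, 16 were higher and 12 lower with STM2457 (edgeR's quasi-likelihood test, adjusted p under 0.01). Among all 12597 genes tested, 27% passed the same threshold, 14.2% as higher and 12.8% as lower, against which the 28 of 76 members are to be read. The median log2 fold change was -0.04 over the members and -0.01 over all genes. The calls fell on single subunits, in both directions within each of the 4 families. The plot of the effect by complex shows this spread.

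**Figure D1:**
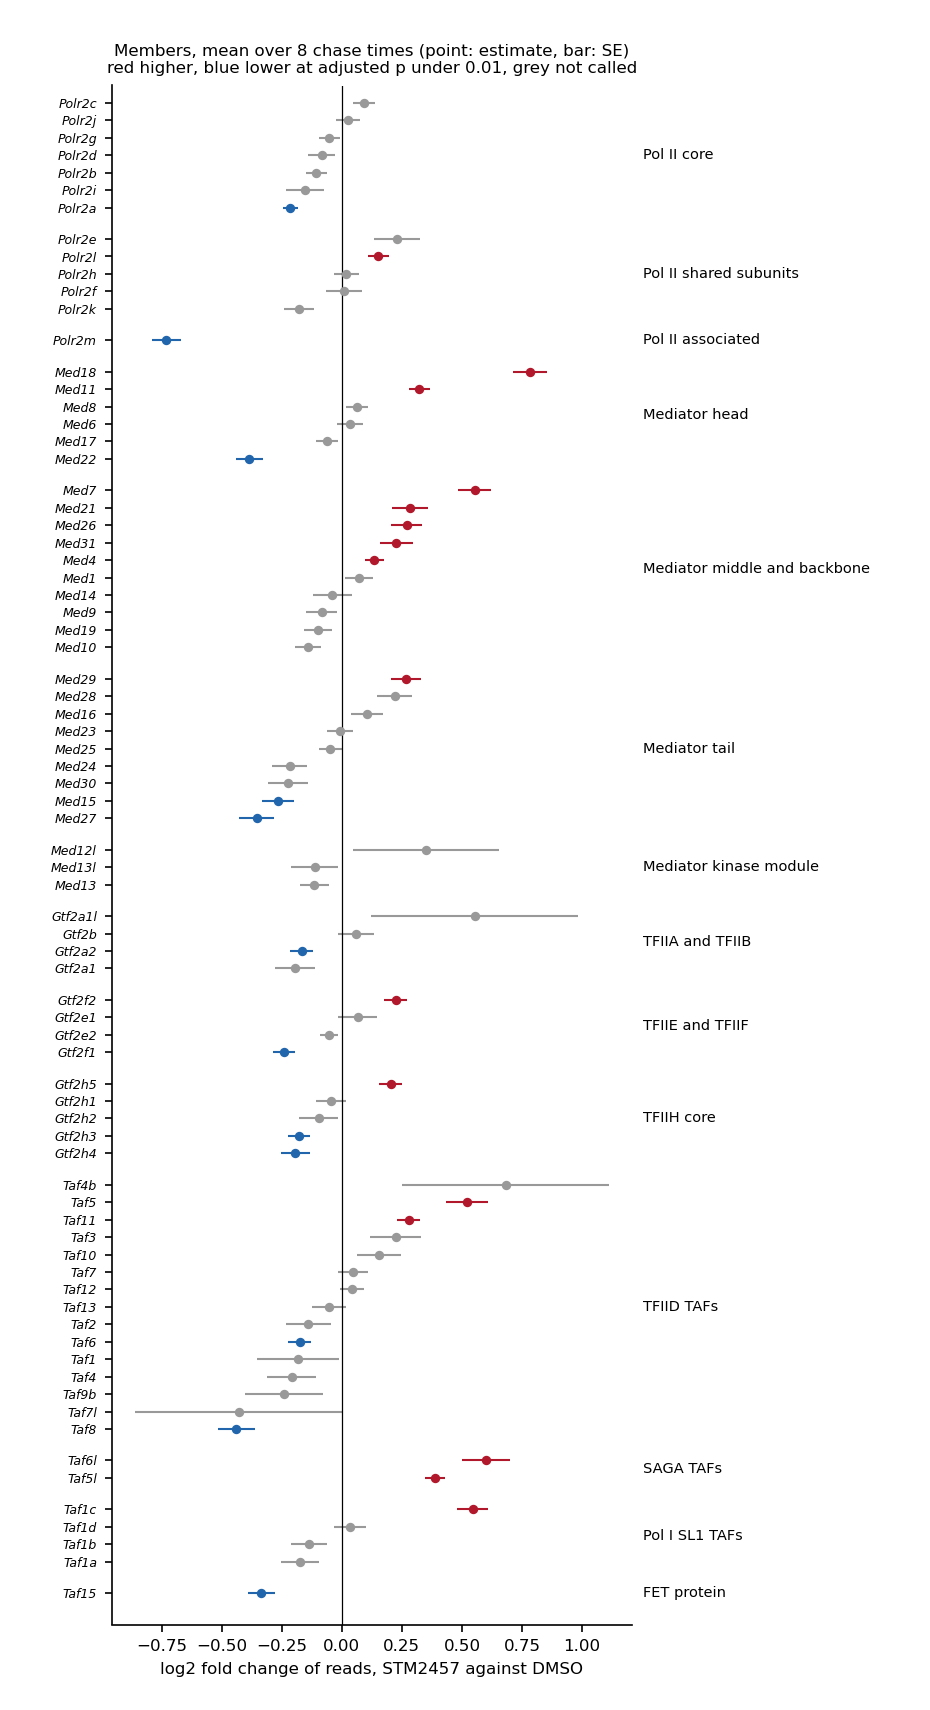
Log2 fold change of reads with STM2457 against DMSO, averaged over the 8 chase times, for the 76 members tested, grouped by complex (point, estimate; bar, SE; red, higher and blue, lower at adjusted p under 0.01; grey, not called). Estimates of called members run from -0.73 for Polr2m to 0.78 for Med18, and most complexes hold members on both sides of 0.

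Of 13 Pol II genes, 1 rose and 2 fell. The largest decrease of all members was that of Polr2m, at chr9:71478437-71485935, which encodes the Pol II-associated protein Gdown1, known to make transcription depend on Mediator. At 0 h it was read at 256, 238, 194 and 224 CPM with DMSO and at 122, 119, 102 and 113 CPM with STM2457. The groups did not overlap, and the same held at 6 of the 8 chase times. The log2 fold change was -0.73 over the chase (SE 0.06, edgeR adjusted p = 7.4e-16) and -1.01 at 0 h (SE 0.11, edgeR adjusted p = 3.6e-05). Cells without s4U, which are separate libraries, gave 143, 224, 170 and 223 CPM of Polr2m with DMSO and 69.2, 114, 97.0 and 119 CPM with STM2457, a log2 fold change of -0.93 (SE 0.17, edgeR adjusted p = 0.0034).

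Polr2a, the catalytic subunit, was lower with STM2457 at all 8 chase times. At 12 h its level was 485, 467, 460 and 483 CPM with DMSO and 417, 389, 396 and 362 CPM with STM2457. The groups at 12 h did not overlap, whereas at 0 h, with 465 to 516 against 417 to 515 CPM, they did. The decrease over the chase was small, with a log2 fold change of -0.21 (SE 0.03, edgeR adjusted p = 3.2e-08). In cells without s4U Polr2a averaged 416 ± 79.4 CPM (SD, n = 4) with DMSO and 424 ± 10.9 CPM (SD, n = 4) with STM2457. The second largest subunit Polr2b had a log2 fold change of -0.11 and did not pass the threshold. Polr2l, a small subunit shared by the 3 polymerases, was called higher with a log2 fold change of 0.15, but 93.1% of its reads map to several positions, and with uniquely mapped reads the value was 0.03 with an adjusted p of 0.77.

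Of 28 Mediator subunits tested, 8 rose and 3 fell. The largest increase was in the head subunit Med18. At 12 h it had 19.3, 16, 15.5 and 14.9 CPM with DMSO and 31.1, 42.1, 38.7 and 43.8 CPM with STM2457. The lowest treated library was above the highest control library, and this was so at 6 of the 8 chase times. Its log2 fold change was 0.78 over the chase (SE 0.07, edgeR adjusted p = 2.5e-14) and 1.25 at 12 h (SE 0.18, edgeR adjusted p = 4.1e-06). In cells without s4U its mean was 32.4 ± 4.8 CPM with DMSO and 56.4 ± 9.5 CPM with STM2457 (SD, n = 4 each), with a log2 fold change of 0.79 that missed the threshold (edgeR adjusted p = 0.014).

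Med7, a hinge subunit of the middle module, followed. At 12 h its level was 36.3, 40.4, 45.6 and 35.5 CPM with DMSO and 72.4, 58.9, 78.0 and 76.5 CPM with STM2457, without overlap, and the mean was higher with STM2457 at all 8 chase times. The log2 fold change of Med7 was 0.55 over the chase (SE 0.07, edgeR adjusted p = 7.6e-10) and 0.86 at 12 h. In the middle module, Med21, Med26, Med31 and Med4 were also higher, with log2 fold changes between 0.14 and 0.28. The call of Med21 was lost without DMSO replicate 2 or STM2457 replicate 1, that of Med31 without DMSO replicate 2 or 4 or STM2457 replicate 1 or 3, and that of Med4 without DMSO replicate 1 or 2 or STM2457 replicate 3 or 4, with values of at least 0.24, 0.18 and 0.11 in every alternative. The head subunit Med11 had 0.32 and the tail subunit Med29 had 0.27. The backbone subunit Med14 (-0.04), Med1 (0.07), the docking site of nuclear receptors, and the head scaffold Med17 (-0.06) did not pass the threshold. The head, middle and tail modules each held subunits that rose, and the head and tail also held subunits that fell.

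The Mediator subunits that fell were the head subunit Med22 (log2 fold change -0.38, SE 0.06, edgeR adjusted p = 7.7e-08) and the tail subunits Med27 (-0.35) and Med15 (-0.27), the latter known to bind activators, whose call was lost without DMSO replicate 3 (values of -0.32 to -0.21 over the alternatives). Med22 was lower at all 8 chase times, with a median of 51.1 CPM (32.9 to 66.7) over 32 DMSO libraries and 39.4 CPM (26.2 to 49.1) over 31 STM2457 libraries. Those ranges overlap, with libraries of all chase times pooled. In the kinase module none of the 3 members tested passed the threshold, with log2 fold changes of -0.11 for Med13, -0.11 for Med13l and 0.35 for the scarce Med12l. Its subunit Med12 was not among the genes counted and could not be tested.

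Of 13 general transcription factor genes, 2 rose and 4 fell, all of them by little. The subunits of TFIIF went in opposite directions. Gtf2f1, the larger subunit, was lower at all 8 chase times (log2 fold change -0.24, SE 0.05, edgeR adjusted p = 1.6e-05), and Gtf2f2, the smaller, was higher (0.22, SE 0.05, edgeR adjusted p = 8.7e-05). Within the core of TFIIH, Gtf2h5 was higher (0.20), Gtf2h4 (-0.19) and Gtf2h3 (-0.18) were lower, and Gtf2h1 (-0.04) did not pass. Gtf2a2 was lower (-0.17). The calls of Gtf2h3 and Gtf2a2 were lost without DMSO replicate 3 or STM2457 replicate 3, that of Gtf2a2 also without DMSO replicate 4, and that of Gtf2h4 without any replicate left out but DMSO replicate 2 or 4, with values from -0.23 to -0.13 for the 3 genes. Gtf2b (0.06) and the TFIIE subunit Gtf2e1 (0.07) did not pass the threshold.

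Of 22 genes named for TAFs, 5 rose and 3 fell. Both SAGA-specific members rose. Taf5l, at chr8:123996318-124021397, was read at 114, 105, 99.1 and 114 CPM at 0 h with DMSO and at 182, 168, 154 and 164 CPM with STM2457, and these groups did not overlap. Its log2 fold change was 0.39 over the chase (SE 0.04, edgeR adjusted p = 6.2e-12) and 0.62 at 0 h (SE 0.11, edgeR adjusted p = 0.0017). Taf6l, read at a median of 22.7 CPM in DMSO and 30.7 CPM in STM2457 over the chase, had a log2 fold change of 0.60 (SE 0.10, edgeR adjusted p = 1.3e-06). Of the SL1 subunits, Taf1c rose (0.55, SE 0.06, edgeR adjusted p = 2.1e-10), while Taf1a (-0.17), Taf1b (-0.14) and Taf1d (0.03) did not pass.

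Taf1c was also called in cells without s4U, with 27.6, 36.5, 39.6 and 42.2 CPM in DMSO and 72.7, 56.7, 62.3 and 63.5 CPM in STM2457, which do not overlap (log2 fold change 0.80, SE 0.17, edgeR adjusted p = 0.0094). Among TFIID TAFs, Taf5 (0.52, SE 0.09) and the histone-fold subunit Taf11 (0.28) rose, and Taf8 (-0.44, SE 0.08) and Taf6 (-0.18) fell, the last with a call that was lost without DMSO replicate 4 or STM2457 replicate 1 (values of -0.19 to -0.15). Taf8, which brings Taf10 into TFIID, was lower at all 8 chase times and without overlap at 5 of them. Taf1 (-0.18), the largest TFIID subunit, Taf4 (-0.21), Taf7 (0.05) and Taf10 (0.16) did not pass. Of the reads of Taf1, 52.9% map to several positions, and with uniquely mapped reads its value turned to 0.12, with an adjusted p of 0.80. Taf15 fell by 0.34 on the log2 scale. The 3′ exons of Taf5, Taf1c, Med26 and Taf6 overlap annotated genes on the opposite strand. The sources used here do not say whether counting used the strand, so whether reads of those partners are among theirs is not known.

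**Figure D2:**
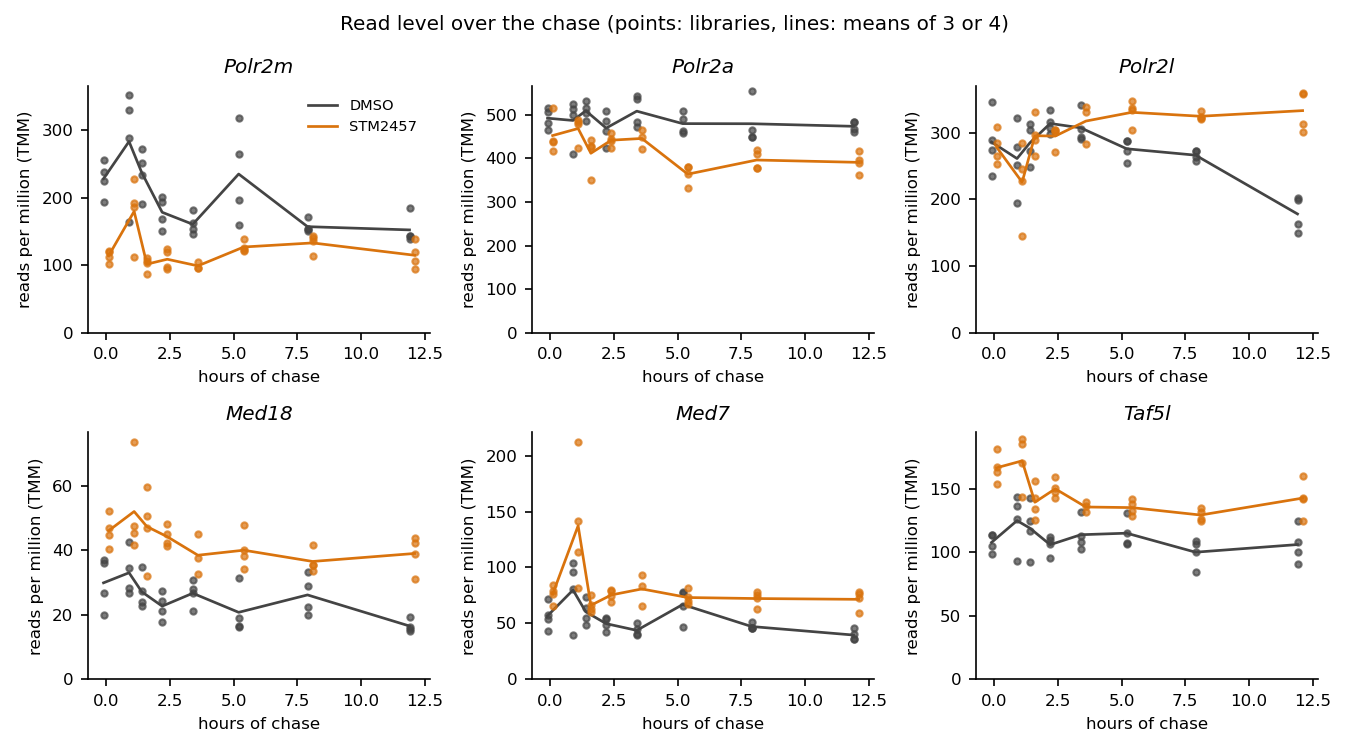
Read level in TMM-scaled CPM over hours of chase for 6 members, with 1 point for each library and lines through the means of DMSO (grey) and STM2457 (orange). Polr2m and Polr2a lie lower with STM2457 and Med18, Med7 and Taf5l higher at all 8 times, and Polr2l parts late, with 150 to 201 CPM in DMSO and 302 to 359 CPM in STM2457 at 12 h.

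The separate libraries without s4U, whose hours of treatment are not given, yielded fewer calls. They are 4 per treatment, where the comparison over the chase had 32 with DMSO and 31 with STM2457 and called 27% of all genes. The counts of calls therefore do not compare the size of the effects. Of 72 members tested there, Polr2m was lower and Taf1c higher, against a background of 0.999% of 10708 genes called, 0.794% as higher and 0.205% as lower. Of the 28 members called over the chase, 20 had the same sign in cells without s4U. The same share was not worked out over all genes called, so this count has no background to be read against. Leaving out DMSO replicate 2 or 3 or STM2457 replicate 2 or 3 left no member called in these libraries (0.266 to 0.33% of all genes). Leaving out DMSO replicate 1 or STM2457 replicate 1 or 4 left Polr2m alone (0.533 to 0.826%).

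Calls at the single times were also fewer and rose in no steady order. In 1 fit of all labelled libraries, 2 of 76 members were called at 0 h (background 1.61% of 12597 genes), 1 at 1 h (1.59%), 5 at 1.5 h (8.39%), 4 at 2.3 h (1.73%), 1 at 3.5 h (1.25%), 5 at 5.3 h (4.52%), none at 8 h (2.55%), where 22 had an unadjusted p under 0.05 by edgeR, and 8 at 12 h (5.9%). The first and last times were also fitted on their own libraries. At 0 h, after 6 h of treatment, the 2 members called of 72 were Polr2m and Taf5l (background 1.42% of 10852 genes, 1.06% as higher and 0.359% as lower). Taf5l was lost on leaving out DMSO replicate 2 or STM2457 replicate 1, which left 1 member called (0.572 and 0.752% of all genes). At 12 h, 10 of 73 members were called and all were higher with STM2457, against 9.28% of 11007 genes called and 5.76% called as higher. They were 5 Mediator subunits (Med18, Med21, Med7, Med31 and Med28), 2 shared Pol II subunits (Polr2l and Polr2e), Gtf2f2, Gtf2h5 and Taf5l. The calls of Med18, Med7, Polr2l and Gtf2h5 held on leaving out any 1 replicate. Without STM2457 replicate 3 the count was 5, beside 6.31% of all genes. With library totals in place of TMM it was 7 higher and 2 lower, and over all genes 536 higher and 513 lower in place of 634 and 387.

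Polr2l stood out at 12 h. It had 163, 150, 201 and 198 CPM with DMSO and 302, 313, 358 and 359 CPM with STM2457, which do not overlap, while the 0 h groups did, with 235 to 346 and 254 to 309 CPM. The log2 fold change at 12 h was 0.91 (SE 0.10, edgeR adjusted p = 1.2e-08), and with uniquely mapped reads it was 0.76 (adjusted p = 0.0082). Med21, a middle subunit at 7.24 to 12.9 CPM in DMSO and 20.6 to 23 CPM in STM2457, had a log2 fold change of 0.99 at 12 h (SE 0.23, edgeR adjusted p = 0.0022). Gtf2h5, the smallest TFIIH subunit, rose by 0.52 on this scale, and Med28 by 0.44.

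The change over the chase was then compared within each treatment. In DMSO, 12 of 76 members were lower at 12 h than at 0 h and none was higher, against 13.9% of 12597 genes called 9.22% as lower and 4.66% as higher. The median log2 change of the members was -0.30 and that of all genes 0.02. In STM2457, edgeR called none of the 76 members, with 16 at an unadjusted p under 0.05. The background by edgeR was 4.78%, with 1.88% higher and 2.9% lower, and the members' median was -0.12 against 0.01 for all genes. DESeq2's Wald test called 3 members (4.49% of all genes), and leaving out DMSO replicate 1 gave 3 by edgeR (5.92%). Over all genes the split in DMSO was 587 higher and 1162 lower. With library totals in place of TMM the median of all genes moved from 0.02 to 0.18, the split to 1141 higher and 628 lower, and that of the members to 1 higher and 8 lower with a median of -0.14. For STM2457 the split over all genes went from 237 higher and 365 lower to 423 and 187. The 12 h libraries also came from cells held longer in culture and in DMSO or STM2457, and these cannot be told apart from the chase.

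Those that fell in DMSO came from each complex. Med21 fell from 33.8, 34.1, 19.7 and 26.8 CPM at 0 h to 11.5, 7.24, 12.8 and 12.9 CPM at 12 h, with no overlap and a log2 change of -1.39 (SE 0.22, edgeR adjusted p = 2.2e-06). Taf1d (-1.05, SE 0.19), Med6 (-1.04, SE 0.15), Taf7 (-1.01), Taf13 (-0.97) and Polr2k (-0.95) followed. The times did not overlap for Med6, a head subunit that contacts Pol II, which went from 66, 64, 56.1 and 62.4 CPM to 26, 32.4, 30.9 and 33 CPM. The 6 others, Med18, Gtf2h2, Polr2l, Polr2m, Polr2d and Gtf2f2, fell by 0.45 to 0.88 on the log2 scale. Of these, each but Polr2l lost its call on leaving out 1 or more of the replicates, with values between -1.02 for Med18 and -0.25 for Gtf2f2. With uniquely mapped reads Polr2k (-1.60, adjusted p = 0.075) and Polr2l (-0.63, adjusted p = 0.031) lost their calls.

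**Figure D3:**
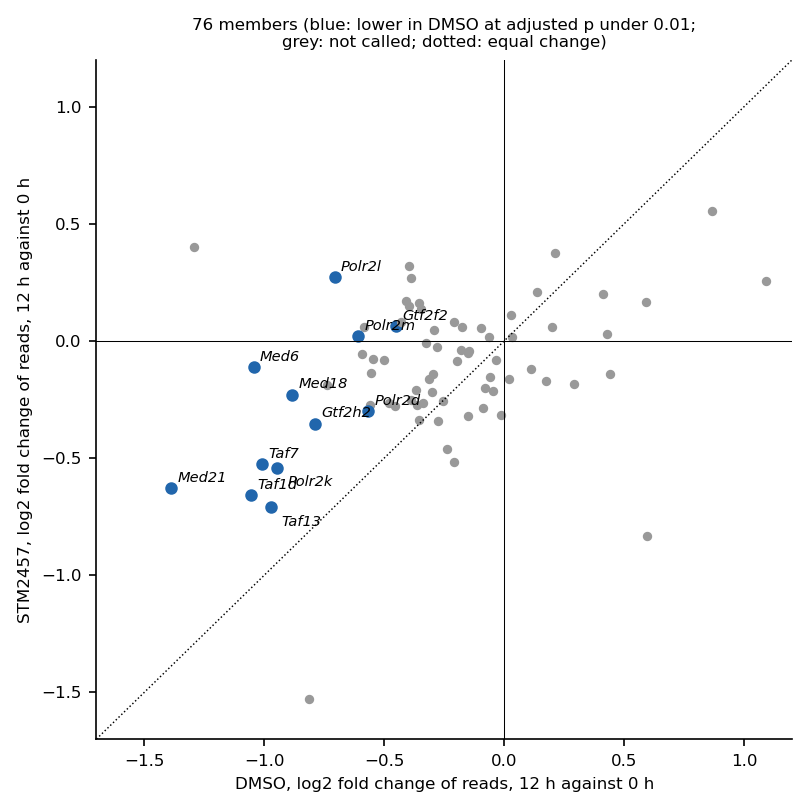
Log2 fold change of reads at 12 h against 0 h of chase in DMSO (x axis) and in STM2457 (y axis) for the 76 members tested, with the 12 called lower in DMSO in blue and the line of equal change dotted. The 12, chosen on their DMSO values, lie above the line, with Med21 at -1.39 in DMSO and -0.63 in STM2457 and Polr2l at -0.71 and 0.27.

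Whether the treatment effect differed between 12 h and 0 h was tested as an interaction. It was called for 2 of 76 members, both with a higher effect at 12 h, against 1.3% of 12597 genes called and 1.12% called in that direction. For Polr2l the difference was 0.98 on the log2 scale (SE 0.17, edgeR adjusted p = 0.00012), which with uniquely mapped reads was 1.12 with an adjusted p of 0.030, above the threshold. For Med6 it was 0.93 (SE 0.22, edgeR adjusted p = 0.0059). Med6 had 54.1, 44.9, 37.0 and 47.6 CPM at 0 h with STM2457 and 48.1, 36.8, 38.4 and 45.4 CPM at 12 h, so its treated libraries overlapped between times where those of DMSO did not. The interaction of Med6 was lost on leaving out any of the replicates other than DMSO replicate 2, and with library totals. For Med18 (0.65) and Polr2m (0.63) the interaction was not called, with adjusted p-values of 0.23 and 0.15 by edgeR. Among the other members of the machinery, a larger or smaller effect at 12 h than at 0 h was therefore not shown.

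Half-lives came from the loss of T-to-C conversions. The conversion rate is the percentage of covered T positions read as C. A half-life was obtained in both treatments for 61 members, of 7363 transcripts in all. Over the members the median half-life with DMSO was 3.30 h, and with STM2457 it was 3.47 h, beside 3.19 and 3.45 h over all transcripts. The half-life was longer with STM2457 in 38 members, or 62.3%, against 56.7% of all transcripts. Of the members without a half-life, 5 had too few covered T positions (Gtf2a1l, Med9os, Taf4b, Taf7l and Taf7l2), 2 fell outside 0.67 to 18 h (Med16 and Taf6l), 1 had no fit (Taf1) and 9, among them Med14, Polr2k, Taf1c and Taf9b, scattered too much about the fit.

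In DMSO the medians differed by complex. Mediator had the shortest, with a median of 2.63 h over 23 subunits, followed by genes named for TAFs at 3.10 h (14), general transcription factors at 3.45 h (12) and Pol II at 4.09 h (12). Within Mediator, the middle and backbone subunits had a median of 2.16 h and the tail subunits 3.08 h. The shared Pol II subunits had the longest median, 5.64 h over 4 that ran from 3.57 to 7.10 h. They include Polr2l (6.71 h), of whose reads 93.1% map to several positions, so that its value may not be that of this gene alone. Ranges of the complexes overlap, with 1.47 to 5.49 h in Mediator and 2.72 to 7.10 h in Pol II, and no test was made between them. The shortest single values were those of Med26 (1.47 h), a subunit known to recruit elongation factors, Taf8 (1.50 h) and Med18 (1.56 h), and the longest those of Taf10 (8.77 h), Gtf2h4 (7.86 h) and Polr2f (7.10 h). The 4 replicate series of Taf10 gave 12.3, 7.62, 6.40 and 12.5 h in DMSO, and those of Med26 gave 1.37, 2.41, 1.16 and 1.45 h. The series of these 2 genes do not overlap, and other neighbours in the order were not compared.

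**Figure D4:**
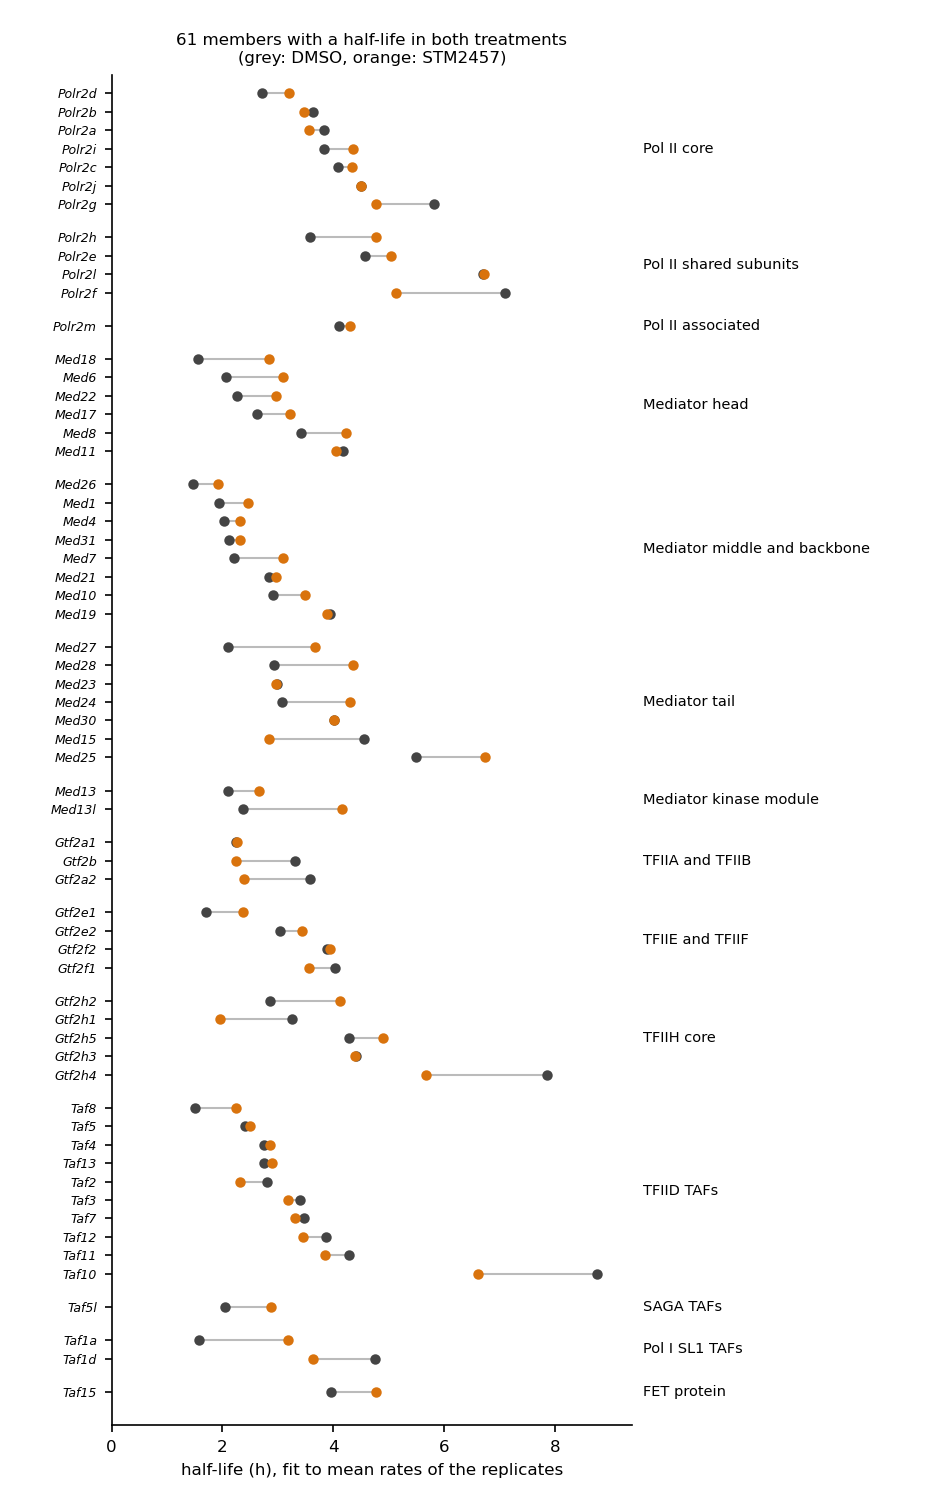
Half-lives in hours of the 61 members with a value in both treatments, grouped by complex (grey, DMSO; orange, STM2457; fits to the mean rates of the replicates). In Mediator 18 of 23 orange points lie to the right of the grey ones, in Pol II 7 of 12, in genes named for TAFs 7 of 14 and in general transcription factors 6 of 12.

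With STM2457 the half-life was longer in 18 of 23 Mediator subunits, where the median was 3.10 h, in 7 of 12 Pol II genes (4.42 h), in 7 of 14 genes named for TAFs (3.18 h) and in 6 of 12 general transcription factors (3.5 h). These counts describe fits to means and carry no test, as transcripts of the same libraries are not independent. Tested by limma on the replicate series, none of the 56 members with a value in every series passed an adjusted p of 0.05, and neither did any of 5741 transcripts (background 0%). At an unadjusted p under 0.05 there were 5 members of 56, beside 7.05% of all. Series of the treatments did not overlap in 2 members, Med27 and Med15, beside 4.35% of all transcripts. Over the 4 series, the median of the members was 3.21 ± 0.09 h (SD) with DMSO and 3.37 ± 0.43 h with STM2457, where the series ran from 2.83 to 3.88 h, so the difference was within the spread of the treated series.

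Med27 had the lowest p. Its half-life was 2.02, 2.02, 2.18 and 2.18 h in the DMSO series and 4.50, 2.84, 3.97 and 3.63 h in the STM2457 series, which do not overlap (log2 change 0.81, SE 0.23, limma adjusted p = 0.67). The conversion rate of Med27 before the chase was 1.85 ± 0.17% (SD, n = 4) with DMSO and 1.17 ± 0.20% with STM2457, and at 3.5 h it was 0.83 ± 0.25% and 0.67 ± 0.12%. Reads of Med27 fell with STM2457. Med18 followed, with 1.40, 1.07, 1.63 and 2.09 h in DMSO and 4.68, 2.40, 1.79 and 2.76 h in STM2457 (log2 change 0.86, SE 0.34, limma adjusted p = 0.70). At 3.5 h its rate was 0.17 ± 0.19% with DMSO and 0.45 ± 0.19% with STM2457, from 11, 0, 4 and 4 conversions and from 24, 21 and 9 conversions, and these groups overlap. Taf1a (log2 change 1.50, SE 0.69) had the largest change among members with all series, from values of 1.18 to 2.08 h in DMSO and of 1.29 to 12.9 h in STM2457.

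Med15 (log2 change -0.78), Gtf2h1 (-0.76) and Gtf2a2 (-0.69) had the largest decreases, each with an SE near 0.3 and an adjusted p by limma of 0.70. For the catalytic subunit Polr2a, covered by the most T positions among these, the series lay close together, with 3.82, 3.68, 3.71 and 4.15 h in DMSO and 3.52, 3.74, 3.43 and 3.23 h in STM2457, which overlap. For Polr2m, whose reads fell most, the half-life was 4.10 h without the inhibitor and 4.30 h with it, with series from 3.41 to 5.33 h and from 2.80 to 8.08 h. For Taf5l they were 2.04 and 2.87 h, and for Med7 2.21 and 3.09 h, with overlapping series. The lower reads of Polr2m and the higher reads of Taf5l and Med7 thus stood beside half-life changes that no test called.

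**Figure D5:**
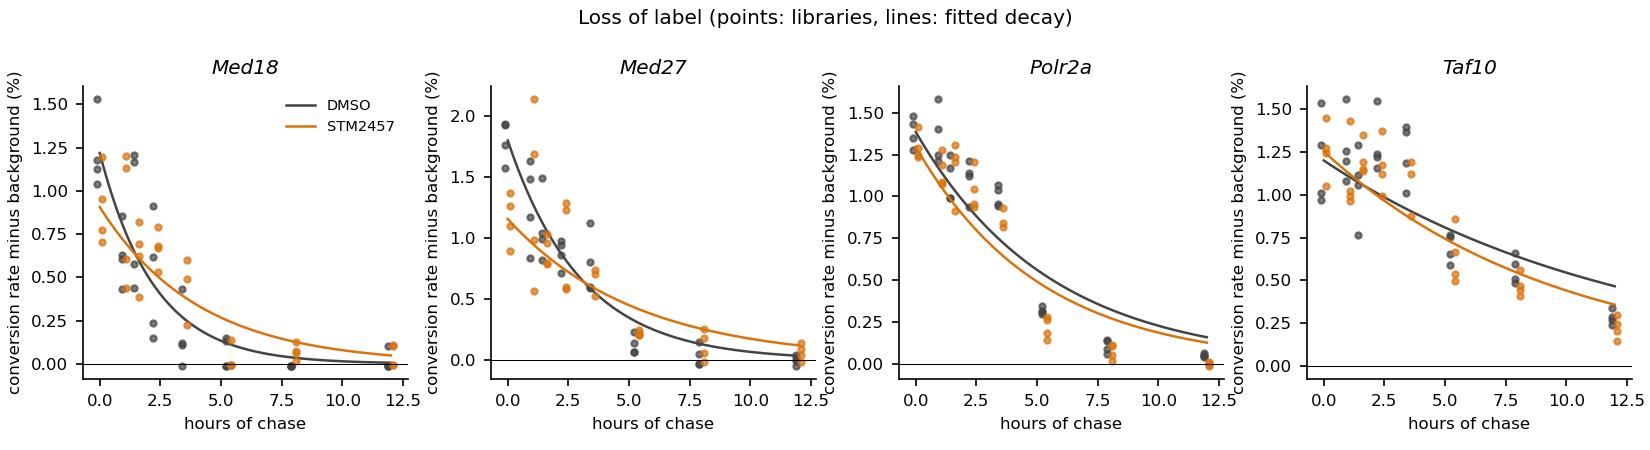
Conversion rate in % of covered T positions, minus the mean rate of cells without s4U, over hours of chase for 4 members, with 1 point for each library and the fitted decay of DMSO (grey) and STM2457 (orange). Rates of Polr2a lie above the fitted line until 3.5 h and below it from 5.3 h on. In DMSO, before subtraction, they are 1.04% at 3.5 h and 0.357% at 5.3 h.

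The label did not follow a single exponential. Over the members the median rate was 61.2% of its 0 h value at 3.5 h and 17.2% at 5.3 h with DMSO, and 61.2% and 18.2% with STM2457. Over all transcripts it was 59.5% and 14.4% with DMSO and 60.2% and 18.3% with STM2457. The steep step between 3.5 and 5.3 h was common to both treatments, and a half-life of a member is therefore a summary of the curve and not a rate constant. With 3.5 h left out of every series the members had a median half-life of 2.90 h without and 3.34 h with STM2457.

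The label was also tested without a decay model. Label retention was the mean of the log rates from 1 to 12 h minus the log rate at 0 h, without subtraction of the unlabelled rate. At 12 h the overall rate was 0.279% with DMSO and 0.223% with STM2457, beside 0.0814 and 0.0829% without s4U. For label retention, edgeR called none of 69 members and none of 8814 transcripts (background 0%), with 0 members and 302 transcripts at an unadjusted p under 0.05. Limma on log2 rates called none. The median log2 difference was 0.10 over the members and 0.07 over all. The largest values among members were those of Med18 (1.31, SE 0.68, edgeR adjusted p = 1.00) and Med13l (1.06, SE 0.55). For the rate before the chase, edgeR and limma also called no member and no transcript (background 0%), with 0 members and 74 transcripts at an unadjusted p under 0.05 by edgeR and a median of -0.11 over both. In simulated data of this size the retention test recovered 18% of transcripts changed by a log2 of 1, and limma on half-lives recovered 2.5% of those changed by 1 and 78% of those changed by 2, so that changes of the size seen in Med27 or Med18 would mostly be missed with these libraries.

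The members called over the chase were compared for the sequence context. The median density of the motif in the 3′ UTR was 1.39 per kb in the 16 that rose, 3.78 per kb in the 12 that fell and 2.33 per kb in the 48 not called. In the same order, the median length of the 3′ UTR was 636, 348 and 724 bases. The median number of motifs there was 1 in each set, and 62.5, 58.3 and 75% of the members had at least 1. Some annotated 3′ UTRs leave little or no room for a motif. They have 1 base in Med11 and 37 in Taf6l, which rose, 22 in Gtf2f1, which fell, and 43 in Polr2i, not called. These count as 0 in the 3′ UTR densities and shares. In the coding sequence the median density was 4.95, 5.2 and 3.46 per kb, against 4.05 per kb over all genes. The 5 members with the highest coding density were Med18 (14.4 per kb), Med9 (11.7), Polr2i (10.6), Taf5l (10.2) and Taf1c (9.96). Of these Med18, Taf5l and Taf1c rose, beside 16 of 76 members and 14.2% of all genes tested. Over coding sequence and 3′ UTR together, the median number of motifs was 6 in the members that rose, 9.5 in those that fell and 7 in those not called. These densities are descriptions, with no test, and a match does not show a methylated site.

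Genes of the pathway outside the name rule were read from a list of 74 genes for TBP and the kinases of TFIIH and Mediator, pausing and elongation, the other polymerases, and Pol II assembly. All 74 were tested over the chase, and 15 rose and 14 fell, beside 14.2% and 12.8% of all genes tested. The kinase of pausing release Cdk9 had the largest increase (0.68, SE 0.04, edgeR adjusted p = 3.1e-20), followed by Gpn2 (0.52), which helps import Pol II into the nucleus, and the Mediator kinase Cdk19 (0.50). Its paralogue Cdk8 fell (-0.28). The CTD-binding protein Rprd1a (-0.82, SE 0.10) and the subunits Mnat1 (-0.48) and Ccnh (-0.40) of the TFIIH kinase fell most, while Cdk7 of the same kinase (-0.14) did not pass. Tbp, the core of TFIID, fell by 0.32. Tbp was also lower at 12 h than at 0 h in DMSO, with a log2 change of -1.01 (SE 0.21, edgeR adjusted p = 0.00023). So were its TFIID partners Taf7 and Taf13, while the 13 other TFIID TAFs tested were not called, beside 9.22% of all genes called as lower.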

How the data were processed

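Reads were aligned to GRCm38.p6 by SLAM-DUNK, which kept reads with up to 100 positions and disregarded variants found in cells without s4U. Per gene, the authors deposited raw counts, not normalized, of reads, multimapping reads, covered T positions and conversions in 3′ UTRs. The deposited conversion rate is a fraction that equals conversions divided by covered T positions. FastQC 0.11.8 is named in the submitters' processing notes. Groups and replicate numbers came from the labels, and hours of chase from the study's methods. The members and lists were chosen with earlier results of these data known.

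Read counts were compared with edgeR 4.0.16 (R 4.3.3; quasi-likelihood test, TMM, its filter on low counts, Benjamini-Hochberg adjustment over all genes tested, adjusted p under 0.01). The comparisons over the chase, between times and of conversions used 1 model of the 63 labelled libraries, and conversions had the log of covered T positions as offset. The comparisons at 0 h, at 12 h and in cells without s4U used only the libraries named. Half-lives were fitted as an exponential decay fixed at 1 at 0 h to rates averaged over replicates, minus the mean of the unlabelled libraries, keeping autosomal and X-linked transcripts whose T coverage exceeded 100, whose half-life lay within 0.67 to 18 h, and whose fit left a residual standard error no larger than 0.3, each under DMSO and under STM2457. The same fit to each replicate number gave 4 series per treatment for limma 3.58.1 (adjusted p under 0.05). STM2457 series 4 lacks 3.5 h. DESeq2 1.42.0 was an alternative. Scripts ran under Python 3.11.15. Gene positions, UTRs and overlaps came from GENCODE M21 on GRCm38, and sequences from its transcripts.

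Genes were named by rule: up to 10 members higher and 10 lower over the chase by size of change, extremes of half-life and of its change, up to 3 per direction in the comparisons between times, landmark subunits, paralogue pairs, the 3 members with the highest multimapping share, and 3 pathway genes per direction. Other members named because their complex is described were chosen after their values were seen. The tests of reads over the chase and at 0 h, of label retention and of half-lives were tested on simulated data, and the other comparisons were not. Over the chase, 82.5% of genes changed by a log2 of 1 and 67% of those changed by 0.5 were recovered, and at 0 h 60% of those changed by 1. No 2 replicates agreed within sampling noise (105 pairs, chi-square per degree of freedom of 2.8 to 71.8). Reads carry no molecular identifiers in the sources used here. Labels number the replicates in each treatment, without saying that a number marks a shared culture or day, and the comparisons were not blocked on it.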

Additional observations from a re-analysis of the deposited data

Results flagged for a closer look

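Outliers were looked for in 253 groups of 4 values of the named members and of the members' share of reads, and 13 were found, where chance gives about 1 in 20 groups, or 12.7. The members took 0.604% of the reads in STM2457 replicate 4 without s4U, where the others averaged 0.582%. At 12 h in DMSO, replicate 1 stood apart for Polr2m (184 CPM, others 142) and Polr2k (37.3 CPM, others 28.2), and replicate 4 for Med27 (60.6 CPM, others 44.3). Med13l had 21.8 CPM in DMSO replicate 3 at 0 h (others 33.5) and 39.9 CPM in STM2457 replicate 2 at 0 h (others 27.2). Of the half-life series with STM2457, series 4 stood apart for Taf5 (8.05 h, others 1.93 h), Med22 (6.63 h, others 2.51 h) and Gtf2h3 (13.8 h, others 3.38 h), series 3 for Gtf2a2 (3.81 h, others 1.87 h), series 1 for Taf1d (12.2 h, others 2.82 h) and series 2 for Gtf2a1 (8.10 h, others 1.68 h). In DMSO, series 1 stood apart for Med15 (8.15 h, others 4.02 h). Series 4 of STM2457 is the one without a 3.5 h library, and the part of this in its values was not tested.

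The treatment effect differed between 12 and 0 h of chase for Med6, by 0.93, and for Polr2l, by 0.98 on the log2 scale (edgeR's interaction test). Most reads of Polr2l map to several positions, and neither call held in every alternative.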

How the results depend on the processing

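Of the 28 member calls over the chase, 19 held in all 15 alternatives. So did 4 of the 10 calls at 12 h (in 16), 1 of 2 at 0 h (Polr2m, in 16), 5 of 12 between 12 and 0 h in DMSO and none of the 2 in cells without s4U or of the 2 interactions. No named member reversed a called direction in any alternative. The median half-life change of the members was 0.07 on the log2 scale and stayed within 0.07 and 0.18, and no alternative called a member for half-life, retention or the rate at 0 h. At an adjusted p under 0.05 the members called were 18 at 12 h (16.7% of all genes), 4 without s4U (3.9%), and 26 in DMSO (23.6%) and 7 in STM2457 (9.66%) between 12 and 0 h. Without s4U the count was 1 with library totals (0.859% of all genes), 1 with uniquely mapped reads (0.841%), 4 without the filter on low counts (2.35%) and 4 with DESeq2 (2.03%). For the interaction it was 1 with library totals (1%) and 1 with uniquely mapped reads (1.12%). Between 12 and 0 h in STM2457 it was 1 without the filter (3% of all genes) and 3 with DESeq2 (4.49%). Leaving out 1 replicate at a time gave 1 to 2 members at 0 h (0.572 to 1.66% of all genes), 5 to 14 at 12 h (6.31 to 8.91%) and 0 to 2 without s4U (0.266 to 0.826%). It gave 1 to 2 interactions (0.662 to 0.983%), and between 12 and 0 h it gave 8 to 12 members in DMSO (8.36 to 14.2%) and 0 to 3 in STM2457 (1.84 to 5.92%). With the replicate number as a block, 4 members were called at 0 h in place of 2 (4.21% of all genes), 30 over the chase (27.1%), 11 at 12 h (9.12%) and 3 without s4U (2.02%). The block changed no half-life call. Over all genes it raised the calls from 154 to 457 at 0 h and from 107 to 216 without s4U. The deviations of same-numbered libraries correlated at over 0.1 in 3 of 4 pairs at 0 h (0.0976 to 0.198) and in 3 of 4 without s4U (-0.0399 to 0.14). They did so in 2 of the 27 other pairs, with 0.509 at 1 h and 0.17 at 8 h. The best correlation was with the own number in 4 of 8 libraries at 0 h and 5 of 8 without s4U. The same held for 5 of 6 at 3.5 h and 4 of 8 at 8 h, and for at most 1 of 8 at each other time. A pairing was thus not shown by these data but is not settled. Depth limits Taf1, Taf9b and the germ cell paralogues, and the few conversions per library limit single half-lives.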
